A study of Hydra viridissima with 2 samples.

Results

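In these 2 libraries of green hydra, 272 gene models of at least 3 exons had 0 read pairs counted both with and without algae. They were chosen from the deposited count table as models with at least 3 exons, after overlapping intervals were merged, and 0 counts in both libraries. Read against all models, they were 272 of 34573. Among the 10954 models of at least 3 exons they made up 2.48%, and the other 10682 had at least 1 count. Across all models, of any exon number, 28.4% had 0 counts in both libraries, but most of those had a single exon: 8868 of 19703 single-exon models and 689 of 3916 models with 2 exons were at 0. These counts chose the members and are given as a description.

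Hydra viridissima is a freshwater polyp that houses green algae in its gut-lining epithelial cells. The study sequenced total RNA of whole polyps of clone 2, after enzymatic removal of ribosomal RNA, from 1 library of green (symbiotic) polyps and 1 library of aposymbiotic polyps, which lack the algae. Per the labels' protocols, each library pooled about 200 large animals, kept at 24 °C, fed brine shrimp and harvested 2 to 3 days after a meal. With 1 library per condition there is no replicate check, no test was run, and pooled animals of 1 clone say nothing of variation between clones. The symbiotic library held 6905650 counted read pairs and the aposymbiotic library 5533508.

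A gene model is a predicted transcription unit, in which the coding sequence is split into exons separated by introns that splicing removes. The file headers name the annotation after BRAKER3, a tool that combines statistical gene prediction with evidence from RNA and from proteins of other species. Intron lengths change readily by small insertions and deletions, so models that share every exon and intron length are often closely related copies. In a genome assembly the same can arise where both versions of 1 place, from the maternal and the paternal chromosome, were assembled separately. A read from such copies can align equally well to several places. The table pairs no names with its identifiers, so models are given by position and no function is stated.

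A count of 0 limits the level rather than showing absence. The limit that a count of 0 allows, 3 counts, corresponded to 0.439 CPM (a count scaled to its library's adjusted total) in the symbiotic and 0.537 CPM in the aposymbiotic library. Over both libraries' unscaled total and a coding length of 924 nt, the members' median, it was 0.261 CPM per kilobase. The median level of multi-exon models with counts was 19.2 CPM per kilobase. These limits and all intervals given here cover counting error only. The limits hold for reads that could be counted. Per the file headers, no option admitted reads with several alignments. The limits may therefore not bound the level of members with close copies, and 133 of the 272 shared every exon and intron length with another model.

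The members were short, few-exon models for the most part. Their median was 3 exons (range 3 to 28), against 7 exons (3 to 110) in multi-exon models with counts. Median coding length was 924 nt (216 to 5205) in members and 1404 nt in models with counts, and median genomic span was 1651 bp against 5484 bp. Among 3-exon models the median span was 1160 bp in the 138 members and 1797 bp in the 1820 models with counts. Introns differed likewise, with a median intron of 184 bp in 3-exon members and 299 bp in 3-exon models with counts. Among 4-exon models the coding length ran the other way, at a median of 1050 nt in 56 members and 879 nt in 1207 models with counts. Repeated lengths weigh in this median, since 11 of the 56 had exactly 1050 nt and 5 had 3234 nt. Coding lengths were multiples of 3 in 97.8% of members and 95.8% of models with counts, and 44.5% and 49.9% lay on the plus strand.

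The silent share was lower in each successive exon class. It was 7.05% of 3-exon models (95% Clopper-Pearson interval 5.95 to 8.27), 4.43% at 4 exons, 1.89% at 5 to 6, 1.24% at 7 to 10 and 0.609% at 11 to 20. Of the 1311 models with at least 21 exons, 3 were silent, or 0.229% (0.0472 to 0.667). By coding length the share was 6.18% up to 500 nt (4.83 to 7.77), 3.31% above that up to 1000 nt and 1.95% above that up to 2000 nt. It was 1.69% in the next class, up to 4000 nt, and 0.229% beyond it, where 2 of 874 models were silent. Models are not independent replicates, so these intervals describe the binomial error of a share alone.

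**Figure D1:**
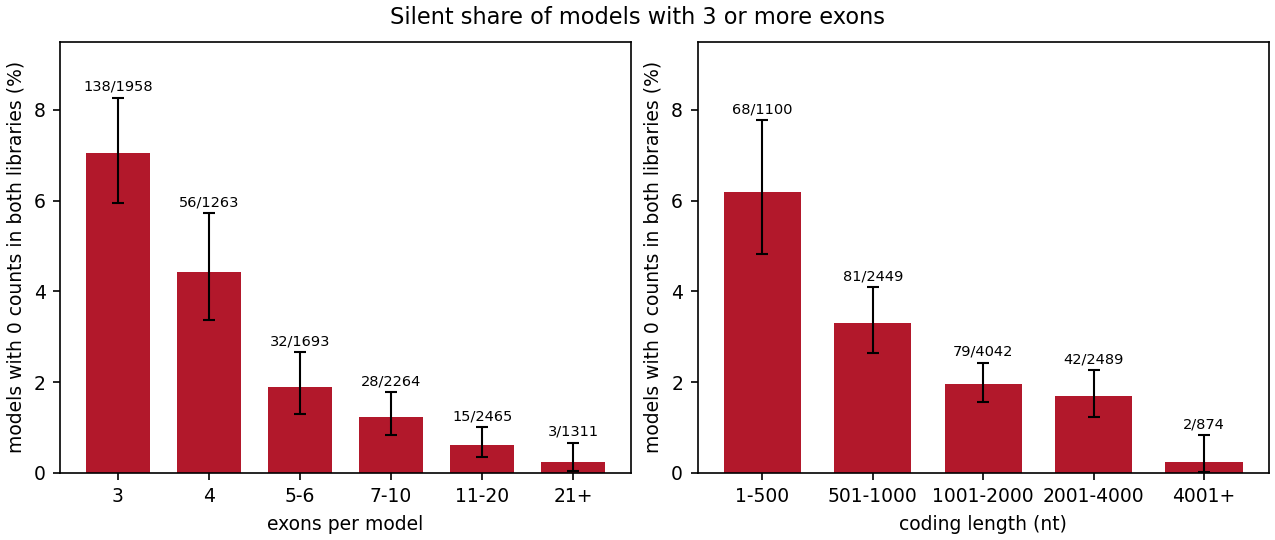
Percent of models with at least 3 exons that had 0 counts in both libraries (vertical axis), by exon number (left) and by coding length in nt (right). Bars are shares, error bars are exact 95% binomial intervals, and the numbers are silent models over all models of the class. The share was highest at 3 exons, 7.05%, and lowest at 21 or more, 0.229%.

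Members often had look-alikes in the annotation. A model was called an exact structure copy when another multi-exon model had the same length for every exon and every intron, in order of transcription. Of the 272 members 133, or 48.9% (42.8 to 55.0), had an exact copy elsewhere in the annotation, against 273 of 10682 models with counts, or 2.56% (2.26 to 2.87). A partial copy, sharing all exon lengths or at least 1 unit of intron, exon and intron of equal lengths, was found for another 69 members (25.4%) and for 17.2% of models with counts. The remaining 70 members (25.7%) and 80.2% of models with counts had neither. Structures were compared by length, without sequence. Whether a copy is a separate gene or a separately assembled version of the same place was not tested, and "copy" below means equal structure alone.

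Exact copies were more frequent among members in every exon class. Their share was 39.9% of members against 6.15% of models with counts at 3 exons, and 60.7% against 5.30% at 4 exons. It was 53.1% against 2.77% at 5 to 6 exons and 57.1% against 1.88% at 7 to 10. At 11 or more exons 11 of 18 members (61.1%) and 9 of 3758 models with counts (0.239%) had an exact copy. Read from the other side, 32.8% of the 406 models with an exact copy were silent, 3.62% of the 1908 with a partial copy alone, and 0.810% of the 8640 with none.

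Among models with counts, exact copies were concentrated at low counts. They made up 29.1% of the 110 models with a single count over both libraries, which lie just outside the threshold, and 39.7% of the 73 models with 2 counts. The share was 22.9% at 6 to 10 counts, 10.4% at 11 to 30, 3.12% at 31 to 100 and 0.674% above that up to 300. In the next class, up to 1000 counts, 2 of 3367 models (0.0594%) had an exact copy. Per the file headers, no option admitted reads with several alignments to the counts; what part such reads had in the zero counts was not tested.

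**Figure D2:**
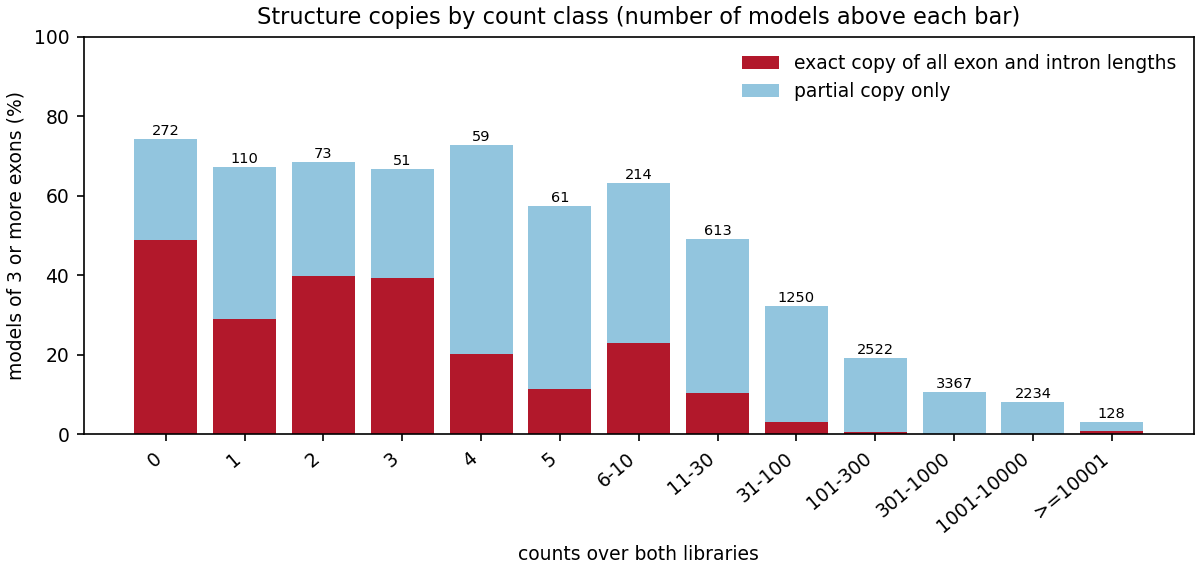
Percent of models with at least 3 exons that had an exact structure copy (red) or a partial copy alone (light blue), by their counts summed over both libraries (horizontal axis). The number above each bar is the number of models. The exact share was 48.9% at 0 counts and 0.0594% in the class that ends at 1000 counts.

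The 406 models formed 146 groups of identical structure, of which 66 held at least 1 member. In 33 groups, with 73 models, every copy was silent. The other 33 groups held 60 members and 85 copies with counts, whose median was 3 counts over both libraries and whose highest was 51, and 64 of these 85 had 10 counts or fewer. Of the 133 members with an exact copy, 79 had their copies on other scaffolds alone.

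Each of the largest groups had copies on several scaffolds. A 4-exon structure of 1050 nt occurred 15 times on 10 scaffolds, 9 times silent, and its copies summed to 13 symbiotic and 4 aposymbiotic counts, a symbiotic-over-aposymbiotic ratio of 2.65 (95% counting interval 0.820 to 11.2). Another 4-exon structure, of 1815 nt, also occurred 15 times, on 11 scaffolds, with 4 silent copies and sums of 64 and 53 counts, a ratio of 0.986 (0.674 to 1.45). The 7-exon structure of 1287 nt had 12 copies on 9 scaffolds, 6 of them silent, with 45 symbiotic and 41 aposymbiotic counts. Of the 10 copies of a 3-exon structure of 2481 nt, on 8 scaffolds, 3 were silent, and the sums were 23 symbiotic and 14 aposymbiotic counts, a ratio of 1.34 (0.662 to 2.82). A 4-exon structure of 3234 nt had 8 copies, 5 of them silent. Its sums of 35 symbiotic and 30 aposymbiotic counts came from 3 copies, the highest of which had 51 in all. Among structures with 7 copies, a 3-exon structure of 486 nt, on 4 scaffolds, was silent in all 7, and a 7-exon structure of 1401 nt, on 5 scaffolds, was silent in 1. The copies of the 1401 nt structure summed to 22 symbiotic and 12 aposymbiotic counts. The ratio was 0.896 (0.574 to 1.40) in the 7-exon group and 0.953 (0.568 to 1.61) in the 3234 nt group, so the intervals of these groups include equality. Summed over all 66 groups, 218 models had 425 symbiotic and 296 aposymbiotic counts, a ratio of 1.17 (1.01 to 1.36). That interval covers counting error alone, with 1 library per condition, and the groups were chosen for holding a member. Whether the polyp states differ in these groups was not tested.

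Some copies lay together in paired blocks, defined as stretches up to 1 Mb long that share at least 2 exact structure copies, with the same relative strand and a spacing that agreed within 2000 bases from 1 copy to the next. There were 15 such pairs of blocks within and between scaffolds, 13 of them with a member, and the copied models of those 13 were 40 members and 18 models with counts. In 10 of the 13 the blocks lay on different scaffolds. Whether paired blocks are separate places in the genome was not tested. The pair with most copied models joined scaffold 47 (14377 to 86492) and scaffold 4 (9959652 to 10031744), over 72116 and 72093 bases. All 8 models of the block on scaffold 47 had 0 counts. They include the member with most exons, cHydvir-v1B3C1_g23636 (61512 to 86492, plus strand, 28 exons, 3666 nt). Its copy on scaffold 4 had 3 symbiotic and 0 aposymbiotic counts. A 19-exon model of 2016 nt was silent in both places, and so were a 3-exon model of 1998 nt and a 6-exon model of 1227 nt. The fifth, a 5-exon model of 471 nt, was silent on scaffold 47 and had 1 symbiotic and 0 aposymbiotic counts on scaffold 4.

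**Figure D3:**
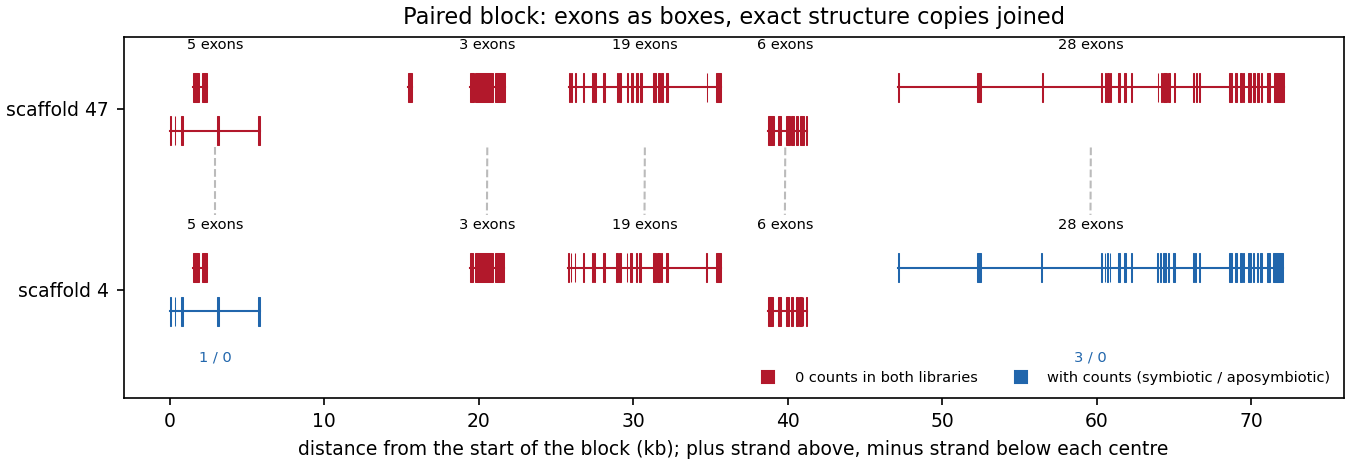
Models of the paired block on scaffold 47 (top) and scaffold 4 (bottom), by distance in kb from the start of each block. Boxes are exons, thin lines introns, red marks 0 counts in both libraries and blue marks counts, printed as symbiotic over aposymbiotic, and dashed lines join exact structure copies of at least 3 exons. All 8 models are silent on scaffold 47, and 5 of 7 on scaffold 4.

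In other blocks the copied models were silent on both sides. On scaffold 1 (32185906 to 32199693) and scaffold 5 (8407616 to 8421403), a 10-exon model of 1155 nt and a 16-exon model of 2715 nt spanned 13788 bases in each place. Scaffold 80 (3731 to 33174) and scaffold 8 (16687776 to 16717227) shared a 6-exon and a 12-exon model, and all 4 models in each block had 0 counts. Between scaffold 113 (3211 to 38260) and scaffold 4 (10389309 to 10424394), an 8-exon model of 801 nt and a 13-exon model of 1275 nt were silent in both places. The block on scaffold 4 also held 1 model with all of its 49 symbiotic and 33 aposymbiotic counts. The 3-exon structure of 486 nt was paired on scaffold 2 (27057882 to 27076108), on scaffold 69 and on scaffold 97, which gave 3 of the 15 block pairs.

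Longer blocks were silent in part. A stretch of 99251 bases on scaffold 4 (16571728 to 16670978) was paired, in the opposite orientation, with one on scaffold 17 (3370832 to 3470145). The pairing rests on 3 copied models, 1 of them silent in each place. Each stretch held 13 models, of which 10 and 9 were silent. On scaffold 11 (563994 to 659245) and scaffold 22 (566730 to 660776), 4 copied models included 2 members in each place, and 9 of 11 and 10 of 12 models were silent.

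Members with a partial copy were set beside their best partner. Of the 69, 57 shared at least 1 unit of intron, exon and intron with another model, and at the median they shared 90% of their units with 1 partner, against 33.3% in models with counts. The members had fewer units to share, with a median of 2 against 7. A single shared unit is then a large part of a member's units, so these percentages do not compare closeness on equal terms. Partners of the members had a median of 3 counts, against 139 for partners of models with counts. A 22-exon member on scaffold 121 (4057 to 19532) and a 22-exon member on scaffold 11 (10341970 to 10357421) shared 18 of 20 units, and 21 of their 22 exons were equal in length. A 14-exon pair on scaffold 81 (31040 to 48910) and scaffold 8 (8566556 to 8584427) shared 10 of 12. The member of longest coding length, cHydvir-v1B3C1_g6413 (scaffold 11, 324247 to 337924, minus strand, 17 exons, 5205 nt), had the same 17 exon lengths as a model on scaffold 22 (344966 to 358644) with 2 symbiotic and 1 aposymbiotic counts. An 8-exon member of 4818 nt on scaffold 48 (84315 to 90094) shared 4 of its 6 units with a 13-exon model on scaffold 3 (15336725 to 15348355), which had 24 symbiotic and 0 aposymbiotic counts.

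The longest run of members was a tandem array on scaffold 11 (15568906 to 15661516). It held 6 models of 10 exons and 2745 nt with 0 counts, spaced 14142 to 26301 bases from start to start. All 10 exon lengths and 7 of the 9 intron lengths were equal across the 6, whereas intron 3 ranged from 231 to 329 bp and intron 8 from 235 to 266 bp. The 6 models between them each had 2 exons and 0 counts, and 5 of these were 618 nt long. A seventh 10-exon model of 2745 nt just before the array (15554752 to 15559231) had 0 symbiotic and 1 aposymbiotic counts. All 10 of its exon lengths equalled those of an array model. That 1 count alone kept it out of the run, since members were chosen at 0 counts. Beyond the far end, a 27-exon model (15669179 to 15691548) had 1786 symbiotic and 1659 aposymbiotic counts.

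Models that shared a series of exon lengths with the array also lay outside it, some of them close by on scaffold 11. The lengths of exons 2 to 7 in the array, 293, 213, 240, 77, 206 and 330 nt, occurred in this order in 17 models on 7 scaffolds, 8 of them silent. Besides the array, silent ones were a 10-exon model on scaffold 11 (15702195 to 15706186) and one on scaffold 14 (2033754 to 2038380). The first lay between models of 353 and 2410 symbiotic counts (375 and 1845 aposymbiotic), and has exact copies on scaffold 9 with 8 symbiotic and 2 aposymbiotic counts and on scaffold 10 with 3 and 0. The highest of the 17 was a model on scaffold 3 (5033330 to 5037401) with 61 symbiotic and 57 aposymbiotic counts, followed by one on scaffold 16 (4164823 to 4169414) with 44 and 61. All 17 summed to 145 symbiotic and 142 aposymbiotic counts. This set of models rests on lengths without sequence, and was singled out after its values were seen.

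**Figure D4:**
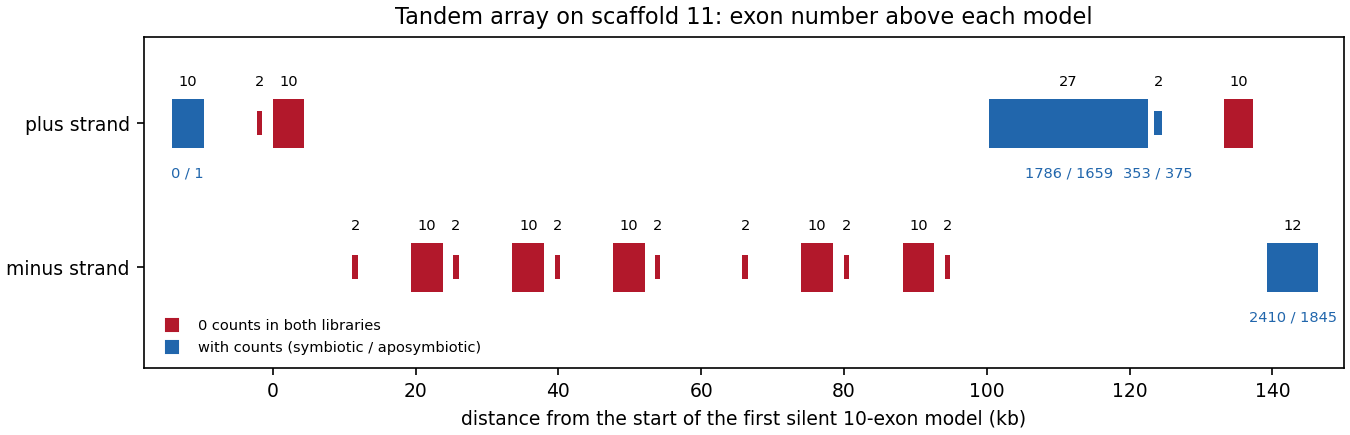
Models around the tandem array on scaffold 11, by distance in kb from the start of its first silent 10-exon model, with the plus strand above and the minus strand below. Red marks 0 counts in both libraries, blue marks counts (printed as symbiotic over aposymbiotic), tall boxes have at least 3 exons, and the number above each box is its exon number. A silent 2-exon model, or in 1 gap a pair of them, stands between each of the 6 silent 10-exon models, and the 27-exon model to their right has 1786 symbiotic and 1659 aposymbiotic counts.

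Members were spread over 42 of the 57 scaffolds that carry a multi-exon model. On the 16 scaffolds with most models 218 of 10602 multi-exon models were silent, or 2.06%, and on the others 54 of 352, or 15.3%. Scaffolds with fewer than 20 models held 35 members among 80 multi-exon models, 43.8%. All 35 had an exact or partial structure copy, 26 of them exact. Whether these scaffolds are places of their own or second versions of places on larger scaffolds was not tested. On 11 of these small scaffolds every multi-exon model was silent, and on 10 of the 11 no model of any kind had a count. On the 16 scaffolds with most models, 8.72% of members (5.33 to 13.3) lay within 500 kb of the first or last model, against 3.09% of models with counts (2.77 to 3.44).

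Along the 16 scaffolds with most models, 37.2% of members (30.7 to 43.9) had another member within 50 kb, whereas 5.02% of models with counts (4.61 to 5.45) had a member that near. Within 10 kb the shares were 22.9% and 1.29%, and within 200 kb 49.1% and 18.7%. Of 304 bins of 1 Mb, 175 held no member, 74 held 1, 48 held 2 or 3, and 7 held at least 4. The fullest bin, from 15 to 16 Mb of scaffold 11 with the tandem array, held 7 of its 49 multi-exon models, and the bin from 6 to 7 Mb of scaffold 7 held 6 of 49. In the order of multi-exon models, 158 members stood alone and 114 stood in 46 runs of at least 2. After the array, the longest runs were the 5 members on scaffold 47 and runs of 4 on scaffolds 2, 4, 8, 11 and 80. In 13 of the 46 runs at least 2 members had the same list of exon lengths.

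The models next to members were mostly low in counts too. Flanking models had a median of 0 symbiotic and 0 aposymbiotic counts around members, against 62 symbiotic and 51 aposymbiotic counts around multi-exon models with counts. Of 526 flanking places around members 52.9% (48.5 to 57.2) were filled by a silent model, against 9.91% (9.51 to 10.3) of 21329 around models with counts. This was so in each exon class of the neighbour. Single-exon neighbours were silent in 64.1% around members and 23.0% around models with counts, 2-exon neighbours in 60.2% and 10.3%, and multi-exon neighbours in 36.9% and 1.16%. Over the whole annotation, 45.0% of single-exon, 17.6% of 2-exon and 2.48% of multi-exon models were silent, and 28.4% of models of any kind. The flanking shares lay above these around members and below them around models with counts. At least 1 flank was silent for 70.6% of members and 18.2% of models with counts, and both flanks for 31.6% and 1.56%. The share of silent neighbours around members was 36.1% at 5 places away and 27.0% at 20 places, against 16.8% and 23.0% around models with counts.

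**Figure D5:**
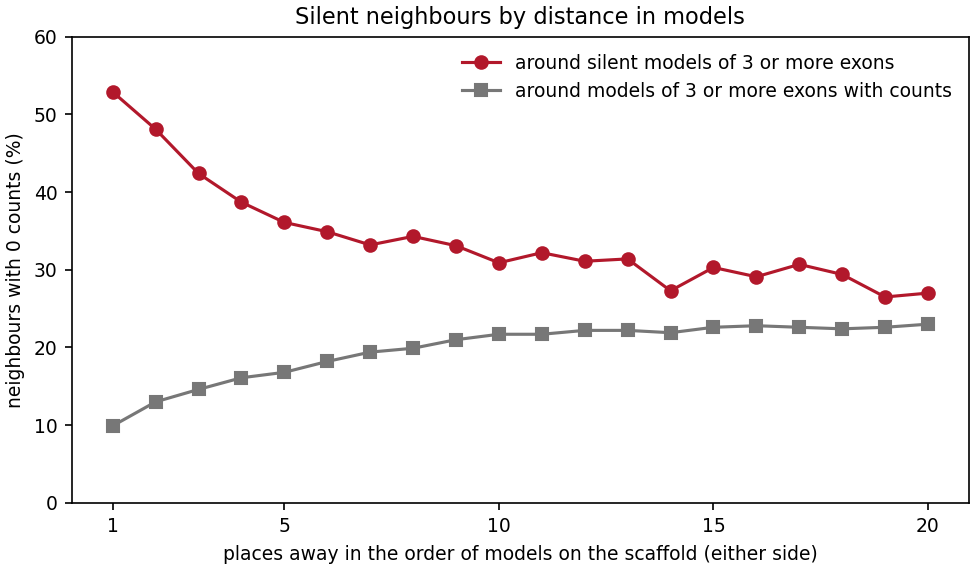
Percent of neighbouring models of any kind that had 0 counts in both libraries (vertical axis), by how many places away they stand in the order of models on the scaffold, on either side (horizontal axis). Red circles are neighbours of silent models with at least 3 exons, grey squares those of such models with counts. The red line stands at 52.9% at 1 place and 27.0% at 20 places, the grey line at 9.91% and 23.0%.

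Silent flanks were not restricted to members with copies. Among members without any structure copy, 60% had at least 1 silent flank, against 17.1% of models with counts that had no copy. The share with another member directly beside them was 5.71% among those 70 members, and 26.1% among all 272. For models with counts it was 0.758% without a copy and 1.19% in all.

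Where neighbours were expressed, they were compared between the libraries. Of 504 different models flanking members, 139 had a mean of at least 1 CPM. Of these, 0 were higher by 2-fold or more in symbiotic polyps with a counting interval that excluded equality, where 0.947% of all 16162 such models were. In the other direction 3 (2.16%) passed the same limits with lower symbiotic values, where 1.42% of all such models did, a share near that background. The 3 were a single-exon model on scaffold 1 (23078107 to 23082150) with 40 symbiotic and 85 aposymbiotic counts, one on scaffold 6 (334559 to 335119) with 5 and 19, and a 2-exon model on scaffold 11 (1593344 to 1594438) with 2 and 15. The symbiotic over aposymbiotic log2 ratio had a median of -0.008 in the 139 neighbours and 0.013 in all 16162.

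A minority of members sat between well counted genes. A flanking model with at least 100 counts over both libraries was present for 69 members (25.4%) and 72.7% of models with counts, and both flanks were that high for 9 members (3.31%) and 30.5% of models with counts. Members were ranked by the lower of their flanks, in counts summed over both libraries. The highest by this measure was a 4-exon model of 999 nt on scaffold 1 (13593588 to 13595058, plus strand). Its neighbours had 1686 and 875 symbiotic and 2209 and 667 aposymbiotic counts, and it had an exact copy. Second by the lower flank came a 4-exon model of 1050 nt on scaffold 12 (14722291 to 14723881), between models of 573 and 1084 symbiotic and 424 and 922 aposymbiotic counts.

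Of the 70 members without a structure copy, 56 had 3 exons, and their median coding length was 610.5 nt and median span 1256 bp. All but 2 lay on the 16 scaffolds with most models. Among them, 26 had a flank of at least 100 counts, and 18 had silent models on both sides. The one with most exons was an 11-exon model of 2214 nt on scaffold 4 (12596166 to 12599572, minus strand). Its neighbours had 111 and 94 symbiotic and 83 and 75 aposymbiotic counts. An 8-exon model of 726 nt on scaffold 3 (3885601 to 3887135) followed, between a single-exon model with 1 count in each library and a silent 2-exon model. A 6-exon model of 1128 nt on scaffold 12 (5722593 to 5726938) lay between models of 482 and 267 symbiotic and 396 and 200 aposymbiotic counts. A 6-exon model of 960 nt on scaffold 7 (6799674 to 6801469) stood beside a 22-exon model of 613 symbiotic and 499 aposymbiotic counts. On its other side lay a 2-exon model with 0 symbiotic and 1 aposymbiotic counts. Another 6-exon model, of 267 nt on scaffold 5 (7461972 to 7463108), lay between models of 39 and 5 symbiotic and 19 and 6 aposymbiotic counts. These last examples were chosen after their values were seen.

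Overlap with other models was rare. An exon overlapped an exon of another model in 6 members (2.21%, 0.814 to 4.74) and in 51 models with counts (0.477%, 0.356 to 0.627). The counting had no strand setting and, per the file headers, no option for reads that overlap several models. Alternative exon boundaries, seen as more listed intervals than merged exons, occurred in 13.6% of members and 18.5% of models with counts.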

How the data were processed

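Polyps with algae (symbiotic) and without (aposymbiotic) gave 1 library each. The labels' protocol describes ribosomal-RNA-depleted total RNA, although the molecule field reads polyA. The authors deposited 1 table of counts: read pairs over exons, summed by model without strand, by featureCounts (version 2.1.1, per the file headers). The submitters' processing notes list deepTools 3.5.6, STAR 2.7.11b and fastp 1.1.0. For the genome, the build was not given in the sources used here. Lengths are called coding lengths because 98.4% are multiples of 3. Exon intervals were merged, and models ordered by scaffold and start. CPM used TMM-adjusted totals (edgeR 4.0.16 under R 4.3.3), with a prior count of 0.5 in log2 ratios. Shares and ratios have exact 95% intervals. No test was run, because each condition has 1 library and the counts chose the members. Copy and neighbour finding was tested on simulated data. Members, lists and definitions were chosen with earlier results of these data known. Models were named by rule: most exons, longest coding length or span, longest runs, highest flanks, largest groups of equal length and exon number, and those just outside the threshold. Copy groups, paired blocks, structure partners, models sharing exon lengths with the array and members without copies were chosen after their values were seen. Alternatives changed the definition of members, neighbours and copies. Software: matplotlib 3.10.9, scipy 1.17.1, pandas 2.3.3, numpy 2.4.6, Python 3.11.15.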

Additional observations from a re-analysis of the deposited data

How the results depend on the processing

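With 2 or more exons, 961 models were silent, with a median coding length of 681 nt, a median span of 961 bp and 39.1% exact copies. With 5 or more exons there were 78, with medians of 1287 nt and 3501 bp, 62.8% with a silent flank, 12.8% with another member beside them and 56.4% exact copies. With at most 2 counts there were 455, with a median of 2 counts in flanking models and 42.6% exact copies. Other alternatives concern neighbours. With 5 models on each side, 90.1% of members had a silent one. The next multi-exon model was a member for 41.9%, and the median count of the next multi-exon models was 35. The silent share was 6.18, 3.31, 1.95, 1.69 and 0.229% from the shortest to the longest class of coding length. From fewest to most exons it was 7.05, 4.43, 1.89, 1.24, 0.609 and 0.229%. Over the 16 scaffolds with most models it ran from 0.868% to 5.13%, with a median of 2.02%. The following were chosen after seeing the data. The 139 members without an exact copy had a median coding length of 799 nt, and 10.1% had another such member beside them. The 70 without any copy had medians of 610.5 nt and 1256 bp, 60% with a silent flank, 5.71% with another beside them and a median of 2 counts in flanking models. Equal exon lengths alone matched 61.0% of members and equal intron lengths alone 55.5%. Of 88 alternatives 47 stayed within 1.5 times (numbers of models) or within the 95% interval (medians and shares). These include every result recomputed with intervals as listed, without overlapping models, on the 16 scaffolds alone, or with 0 counts required in 1 library alone. Those sets share most of their models with the 272 members, so little change was possible. They held 345 models with intervals as listed, 266 without overlaps and 218 on the 16 scaffolds. With 0 symbiotic or 0 aposymbiotic counts they held 337 and 384, which include all members. Depth limits what a 0 shows, most of all in short models. No paired analysis was possible because each condition has 1 library.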

Other observations

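A few members spanned other models. Of the 272 members 7 held other models within their span, 34 models in all, and all 34 had 0 counts. Of the 10682 multi-exon models with counts 170 held other models, 214 in all, of which 24 (11.2%) had 0 counts. Across the annotation, 28.4% of all models and 45.0% of single-exon models had 0 counts. Most of the 34 lay within the members on scaffold 5 described next, and those enclosed models all had a single exon. The member of longest span, a 4-exon model of 1800 nt on scaffold 5 (1290056 to 1348113), spread over 58058 bp with an intron of 28226 bp and enclosed 15 single-exon models. Another long member, a 3-exon model of 1392 nt on scaffold 5 (619321 to 642313), enclosed 7 single-exon models. Neither had a structure copy.

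Multi-exon models seen in 1 library alone were a larger set on the symbiotic side, with 112 models at 0 in the aposymbiotic library alone and 65 at 0 in the symbiotic library alone. Of the 112, 65 had a single count and 10 had at least 5, and of the 65, 45 had a single count and 4 had at least 5. The symbiotic library was the deeper one, and what part depth had in this was not tested. An exact structure copy was present for 39.3% of the 112 and 24.6% of the 65. Of the models with 1 count in all, the one with most exons had 26 (scaffold 17, 3250953 to 3263455), with 1 symbiotic and 0 aposymbiotic counts.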
